A study of Mus musculus with 9 samples.

Results

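The genes described here are those whose array probes lay within 20 Mb of the Lep probe on mouse chromosome 6, measured in isolated glomeruli, the capillary tufts where the kidney filters blood. Lep encodes the hormone leptin, and the ob allele is a nonsense mutation in it. A gene entered through a probe placed on chromosome 6 between 9020910 and 49020969 (build mm9, the Lep probe itself at chr6:29020910-29020969) that was well above background on all arrays of at least 1 group, and where several probes did, the one brightest on average stood for the gene. Lep, Bpgm, Cald1, Podxl, Thsd7a, Trpv5, Slc13a1 and names starting with Nduf were left out by name. This gave 282 genes out of 23968 features tested on the array, of which 163 carried a gene symbol and 119 a clone, predicted or transcript name. On the low-coordinate side of Lep lay 66 of them and on the high-coordinate side 216. The genes were thus chosen by position and by signal level, and the list of names left out holds genes that differed between ob/ob and wild type, given at the end.

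The series compared 3 groups of 3 samples, all from male BTBR mice at 22 weeks of age: ob/ob mice fed enarodustat in their food for 18 weeks, ob/ob mice fed vehicle food for those 18 weeks, and wild-type mice fed vehicle food. Enarodustat is an inhibitor of the HIF prolyl hydroxylases, the enzymes that mark hypoxia-inducible factors for degradation. Glomeruli were isolated with magnetic beads and their total RNA was hybridised to one-colour Agilent arrays, 1 array per sample. The labels do not say whether a sample is 1 mouse or a pool, or whether the wild-type mice were littermates, so the p-values measure the spread between these samples.

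BTBR ob/ob is a congenic line: the ob mutation arose on another background and was brought into BTBR by repeated backcrossing. A congenic line keeps a stretch of donor chromosome around the selected locus, with its own sequence variants, and genes there can differ in expression between the line and its wild-type strain apart from the mutation. The length of that stretch in these mice is not given in the labels. Donor sequence, the ob allele and the obesity and diabetes that follow from it are carried by the same mice, so their parts in any ob/ob difference cannot be told apart here.

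The 9 arrays had 62.3% to 68.3% of probes above background, 8 of them on 1 slide and enarodustat replicate 3 on another. All 8 podocyte markers and all 8 glomerular endothelial markers were above background on all 9 arrays. Markers were called between both ob/ob groups together and wild type at an adjusted p under 0.05 in limma. Podocyte markers were lower in ob/ob glomeruli (6 of 8 called, against 5.14% of all features called lower). Macrophage markers were higher (10 of 12 called), as were 3 of 6 lymphocyte markers tested, against 8.09% of all features called higher. The mean log2 level of 16 proximal tubule markers was 0.01, 2.51 and -0.03 on the enarodustat arrays, 0.00, 0.51 and -2.06 on the ob/ob vehicle arrays and 0.63, 0.37 and 3.55 on the wild-type arrays. Wild-type replicate 3, enarodustat replicate 2 and ob/ob vehicle replicate 3 thus stood apart in tubule RNA. In bulk samples fewer cells of a type and less RNA per cell cannot be told apart.

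Probe sequences are shown for Smo and Gimap3, which had the largest decreases among genes with a symbol, and for Irf5, whose 2 probes gave different values. Each line gives the first 30 of 60 bases, 5′ to 3′, with the position of the whole probe in mm9. Whether a probe lies in a coding exon or in a UTR was not determined here. No 2 probes of the 282 genes shared a run of 20 or more bases.
Smo, chr6:29711225-29711284, plus strand: aatgtctagtcattttcatagtgccccaca
Gimap3, chr6:48714463-48714522, minus strand: caatgcgtgctttaaaactcggcgtttcag
Irf5, chr6:29486901-29486960, plus strand: cagagtcggggtaacaagaacatagaagag
Irf5 second probe, chr6:29491799-29491858, plus strand: agaggtttctgattgtgggacacagtctgg

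The first question was whether genes around Lep differed between ob/ob and wild-type glomeruli. Between both ob/ob groups together and wild type, 39 of the 282 genes were called, that is, had an adjusted p under 0.05 in limma over all features, against 13.2% of all features tested. That is 13.8% of the genes around Lep, and 14.1% of the 997 other features on chromosome 6 were called, so the share near Lep was close to the background. Of the 39, 21 were higher in ob/ob (background 8.09%) and 18 lower (background 5.14%). The median log2 change was -0.016 for the genes around Lep and 0.0047 for all features, and the median size of the change was 0.23 against 0.21. Over the chromosomes, the share called ran between 11.5% on chromosome 5 and 16.0% on chromosome 3.

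Each ob/ob group alone gave a like picture. Enarodustat-fed ob/ob against wild type called 32 genes, which is 11.3% against a background of 10.3%, with 18 higher (background 6.15%) and 14 lower (background 4.12%). Vehicle-fed ob/ob against wild type called 27, which is 9.57% against a background of 7.61%, with 15 higher (background 4.95%) and 12 lower (background 2.66%). These comparisons share the wild-type arrays. The values of the 6 ob/ob arrays and the 3 wild-type arrays did not overlap for 57 genes (20.2%, background 19.5%), among them 35 of the 39 called. The filter kept 16 genes through the wild-type arrays alone, and the 4 of these that were called were all lower in ob/ob, a direction that their entry favours. Of the 97 genes with several kept probes, 6 were not called on the brightest probe but had a probe called when limma took each probe as a feature. Of the 39 called genes, 14 had several kept probes. With each probe a feature, all kept probes were called for 5 of these 14. For 12 of the 14, all kept probes changed in the same direction.

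**Figure D1:**
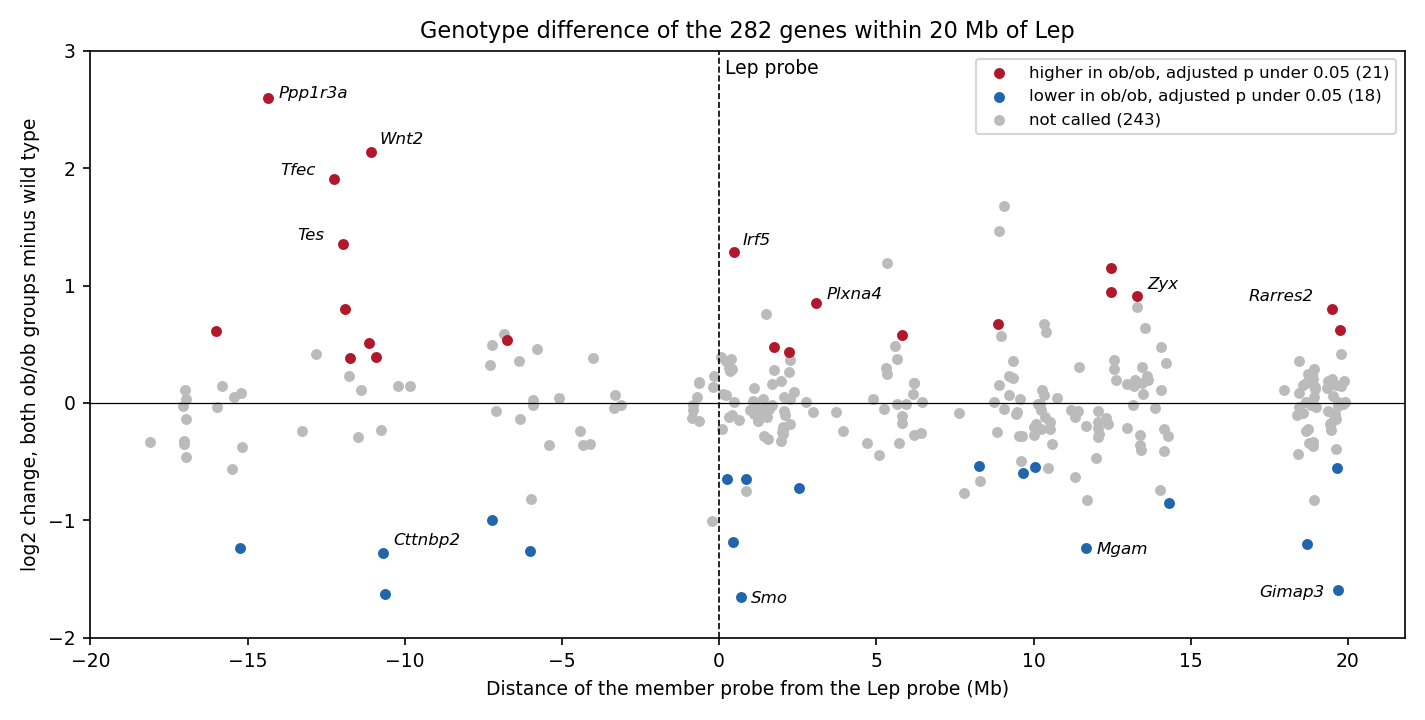
Log2 change between both ob/ob groups and wild type (vertical axis) of the 282 genes against the distance of their probe from the Lep probe in Mb (horizontal axis). The 21 genes called higher are red, the 18 called lower blue and the other 243 grey. Large changes lie on both sides of Lep, and the highest values, of Ppp1r3a, Wnt2 and Tfec, lie 10 to 15 Mb below it.

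The called genes were spread unevenly along the chromosome. From 10 to 15 Mb below Lep, 10 of 17 genes were called (58.8%, against 13.2% of all features tested). Of these 10, 8 were higher and 2 lower, and the median size of change of the 17 genes was 0.41. In the other 5 Mb stretches below Lep, 0 of 17 (0 to 5 Mb, 4 at an unadjusted p under 0.05 in limma), 3 of 16 (5 to 10 Mb, 18.8%) and 2 of 16 (15 to 20 Mb, 12.5%) were called. Of all features, 28.4% had an unadjusted limma p under 0.05 in this comparison. Above Lep the counts were 9 of 60 (15%), 4 of 42 (9.5%), 6 of 64 (9.4%) and 5 of 50 (10%) with growing distance. The dense stretch was singled out after its values were seen, it holds few genes, and some of its probes share a locus, such as 9130022E09, which lies among the Cttnbp2 probes, and Gm4876, which lies beside Tes. Without it, 29 of 265 genes were called, 10.9% against 13.2% of all features. Leaving out the stretch with the highest share lowers the share of the rest by construction, so these shares are not a like comparison. When the pair of arrays highest in tubule RNA was left out (wild-type replicate 3, enarodustat replicate 2), 6 of the 17 genes of the dense stretch were called. Of all features, 7.96% were called in that fit.

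**Figure D2:**
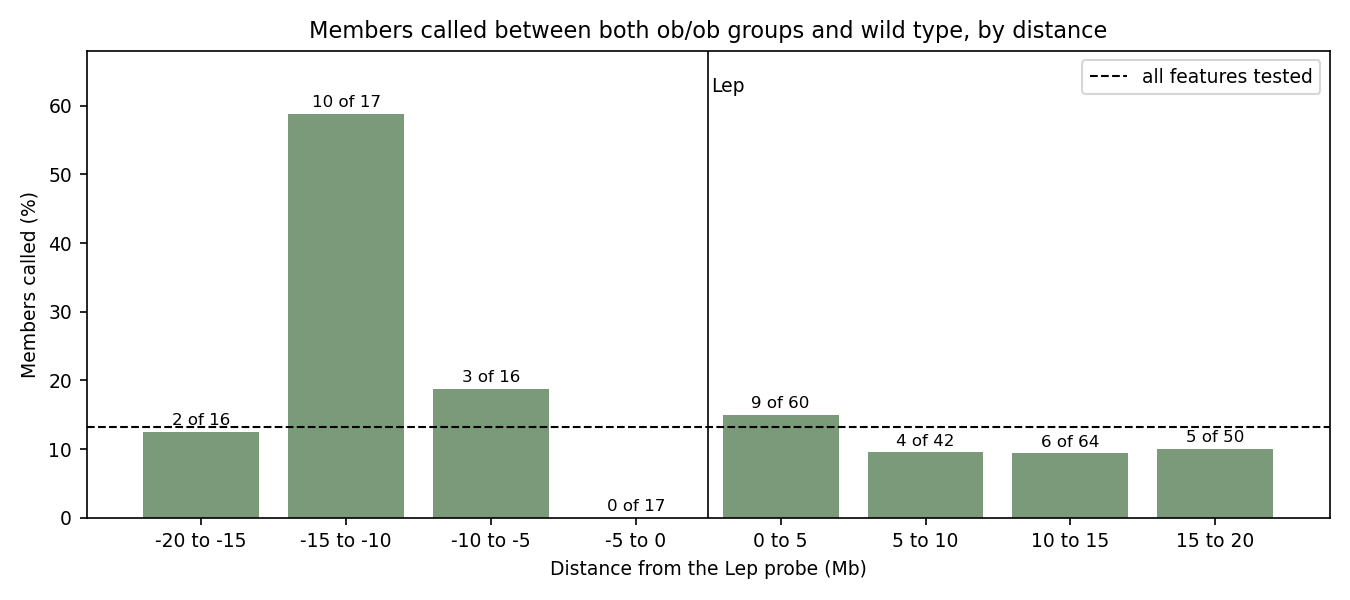
Share of genes called between both ob/ob groups and wild type (bars, in %) in 5 Mb stretches by distance from the Lep probe. The dashed line is the share of all features tested, 13.2%, and the counts stand above the bars. The stretch 10 to 15 Mb below Lep has 10 of 17 genes called and the stretch next to Lep on that side 0 of 17.

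Levels are given on the log2 scale, with 0 at the 75th percentile of an array, and are compared for 1 probe at a time. Changes are log2 differences with the standard error of the limma fit, and p-values are limma's, adjusted over all 23968 features. Of the dense stretch, Ppp1r3a, a subunit that directs protein phosphatase 1 to glycogen and is best known from muscle, had the largest change. It measured 1.16, 0.33 and 1.11 in enarodustat-fed ob/ob and 1.00, -0.10 and 0.48 in vehicle-fed ob/ob glomeruli, against -1.59, -1.93 and -2.29 in wild type. All 6 ob/ob arrays lay above all wild-type arrays, a difference of 2.60 ± 0.28 (SE, adjusted p = 0.0015) or 6.05-fold.

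Wnt2, a secreted ligand of the Wnt pathway, measured -1.67, -0.98 and -1.33 with enarodustat and -1.27, -0.91 and -1.02 with vehicle in ob/ob, against -3.15, -3.69 and -3.16 in wild type. The groups did not overlap, and the change was 2.14 ± 0.19 (SE, limma, adjusted p = 0.00069). Tfec, a transcription factor of the MiT family known from macrophages, measured -0.59, -0.68 and -0.79 with enarodustat and -0.54, -0.62 and -0.33 with vehicle in ob/ob, against -2.07, -2.64 and -2.79 in wild type. It rose by 1.91 ± 0.16 (SE, limma, adjusted p = 0.00068), and its second probe gave 1.86. The mean of the 12 macrophage markers moved with it, with 1.09 to 1.76 on the enarodustat arrays, 1.74 to 2.10 on the ob/ob vehicle arrays and 0.03 to 0.56 on the wild-type arrays. The part of these cells in the Tfec change was not tested.

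Tes, a LIM domain protein of focal adhesions, lies beside the caveolin genes. It measured 1.88, 1.51 and 1.95 with enarodustat and 1.73, 1.52 and 1.94 with vehicle in ob/ob, against 0.73, 0.48 and -0.02 in wild type. It rose by 1.36 ± 0.19 (SE, limma, adjusted p = 0.0033), with every ob/ob array above wild type. Cav1, the main structural protein of caveolae, rose by 0.38 ± 0.10 (SE, limma, adjusted p = 0.040), a call that was lost in 7 of 9 fits leaving out 1 array. Cav2, its partner, and Capza2, an actin capping protein, gave 0.23 and 0.11 and were not called. St7, a membrane protein studied as a tumour suppressor, gave 0.51 ± 0.11 (SE, limma, adjusted p = 0.021) on its brightest probe. That call was lost without wild-type replicate 3, and its 3 other probes gave values between -0.16 and 0.03.

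Cttnbp2, a cortactin-binding protein known from neurons, fell in ob/ob. It measured 0.65, 0.58 and 0.86 with enarodustat and 0.96, 1.12 and 0.75 with vehicle in ob/ob, against 2.11, 2.27 and 1.92 in wild type. No ob/ob array reached a wild-type level, and the change was -1.28 ± 0.13 (SE, limma, adjusted p = 0.0011). All 3 of its probes were called, between -1.28 and -1.50. The transcript 9130022E09, whose probe lies among them, changed by -1.62 ± 0.17 (SE, limma, adjusted p = 0.0011).

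**Figure D3:**
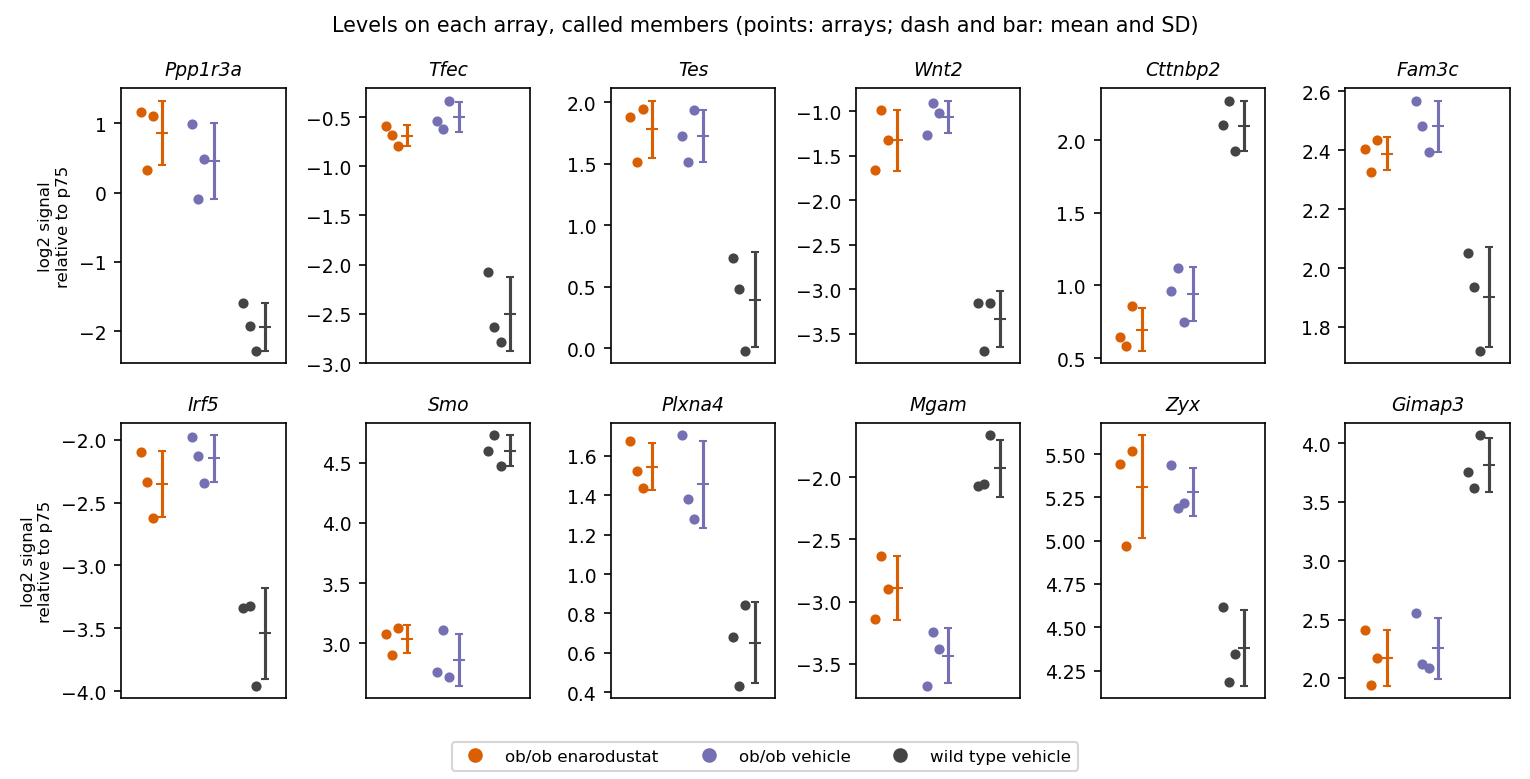
Log2 signal relative to the 75th percentile (p75) on each array for 12 called genes in order of position, each panel with its own axis. Points are arrays, the dash and bar are mean and SD (n = 3), with ob/ob enarodustat left, ob/ob vehicle in the middle and wild type right. In every panel the 6 ob/ob arrays lie on 1 side of the 3 wild-type arrays.

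The immediate neighbours of Lep were taken as the 8 nearest genes on each side. On the brightest probes of these 16, limma called 0 higher (8.09% of all features) and 1 lower (5.14% of all features) in ob/ob. The median change was 0.07, and 4 had an unadjusted limma p under 0.05 (28.4% of all features), of which 2 were higher. The called one was 4930445G23Rik, a predicted transcript kept through the wild-type arrays alone, which favours that direction. It was at least 1.03-fold lower in enarodustat-fed and at least 1.20-fold lower in vehicle-fed ob/ob than in wild type, the second with a limma adjusted p = 0.021 that lost its call in 3 of 9 fits leaving out 1 array. Such a bound sets the wild-type mean against the higher, on each ob/ob array, of the probe's own signal and the dimmest signal well above background. The call of 4930445G23Rik between enarodustat-fed ob/ob and wild type was kept in 1 of 9 fits leaving out 1 array. Hilpda, a lipid droplet protein induced by hypoxia-inducible factors, measured 1.47, 1.11 and 1.32 with enarodustat and 1.39, 1.16 and 1.29 with vehicle in ob/ob, against 1.47, 1.06 and 0.28 in wild type. The groups overlapped (0.36 ± 0.23, SE), with the lowest value in wild-type replicate 3. Lrrc4, a synaptic adhesion protein, gave -1.0 ± 0.38 (SE) with overlapping groups, and Rbm28, a ribosome assembly factor, 0.39 ± 0.13 (SE); neither was called. Calu, a calcium-binding protein of the secretory pathway, gave 0.30 ± 0.13 (SE) on its brightest probe, not called. Its second probe gave 0.67 without overlap of the groups and was called when each probe was a feature (limma, adjusted p = 0.0077). The Lep probe itself was above background on all 9 arrays and gave -0.14 (limma, adjusted p = 0.47).

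Within 1 Mb above Lep lie Irf5 and Smo, which moved in opposite directions. Irf5, a transcription factor of inflammatory responses in myeloid cells, measured -2.10, -2.33 and -2.62 with enarodustat and -1.98, -2.13 and -2.34 with vehicle in ob/ob, against -3.34, -3.33 and -3.96 in wild type. The groups did not overlap, and the change was 1.29 ± 0.18 (SE, limma, adjusted p = 0.0036). Its second probe, shown above, gave 0.10 (limma, adjusted p = 0.70). The 2 probes therefore disagree in size. Macrophage markers were higher in the same arrays, and the part of these cells in the Irf5 change was not tested.

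Smo, the membrane protein that passes on the Hedgehog signal, had the largest decrease of the 282 genes and their smallest adjusted p. It measured 3.08, 2.90 and 3.13 with enarodustat and 2.76, 3.11 and 2.72 with vehicle in ob/ob, against 4.60, 4.73 and 4.47 in wild type. The highest ob/ob array was far below the lowest wild-type array, and the change was -1.65 ± 0.12 (SE, limma, adjusted p = 0.00041), a 3.14-fold lower signal. Smo has 1 kept probe, so no second sequence bears on it, and whether donor sequence variants lie under that probe was not tested. Ahcyl2, a regulator of ion transport related to adenosylhomocysteinase, changed by -0.65 ± 0.14 (SE, limma, adjusted p = 0.018), and its 3 other probes gave between -0.51 and 0.10 with 0 called.

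Of the receptors and ligands on the list, 9 were measured: 3 were called higher (Wnt2, Plxna4 and Fam3c; 8.09% of all features) and 2 lower (Smo and Ptprz1; 5.14% of all features), with a median change of 0.29. Plxna4, a receptor for semaphorins, measured 1.68, 1.52 and 1.44 with enarodustat and 1.70, 1.38 and 1.28 with vehicle in ob/ob, against 0.68, 0.43 and 0.84 in wild type. It rose by 0.85 ± 0.13 (SE, limma, adjusted p = 0.0058), without overlap. Fam3c, a secreted cytokine-like protein, rose by 0.53 ± 0.10 (SE, limma, adjusted p = 0.012), while its second probe gave 0.24. Ptprz1, a receptor phosphatase that binds pleiotrophin, was above background on 1 of 3 enarodustat arrays, 0 of 3 ob/ob vehicle arrays and 3 of 3 wild-type arrays. Its signal was at least 2.11-fold lower in ob/ob vehicle (limma, adjusted p = 0.041). It was kept through the wild-type arrays alone, and its call between both ob/ob groups and wild type was lost in 6 of 9 fits leaving out 1 array. Ptn, which encodes pleiotrophin, gave -0.08 ± 0.28 (SE) and was not called.

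Adhesion and motility genes further from Lep included Zyx, which encodes zyxin, a protein of focal adhesions and stress fibres. It measured 5.44, 4.97 and 5.52 with enarodustat and 5.44, 5.19 and 5.22 with vehicle in ob/ob, against 4.62, 4.18 and 4.35 in wild type. It rose by 0.92 ± 0.15 (SE, limma, adjusted p = 0.0072) without overlap, and its second probe gave 0.83 and was called too. With Tes and Cav1 this made 3 of 11 listed genes of caveolae, adhesion and motility called higher (8.09% of all features). Of the 11, 0 were called lower (5.14% of all features), and the median change was 0.23. Met, the receptor of hepatocyte growth factor, gave -0.29 ± 0.56 (SE), and its highest values, 0.76 and 0.34, were in wild-type replicate 3 and enarodustat replicate 2, the arrays highest in tubule markers. Epha1, an ephrin receptor whose probe lies beside that of Zyx, was called between enarodustat-fed ob/ob and wild type (1.14 ± 0.27, SE, limma, adjusted p = 0.033), a call lost in 5 of 9 fits leaving out 1 array. In vehicle-fed ob/ob it gave 0.50, and the 2 ob/ob groups did not differ by a call (0.64, limma, adjusted p = 0.71).

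Of 20 genes of transcription and chromatin, 2 were called higher (Tfec and Irf5) and 1 lower, at a median of -0.012. Of all features, 8.09% were called higher and 5.14% lower. The lower one was Creb3l2, a factor of the unfolded protein response, with -0.54 ± 0.13 (SE, limma, adjusted p = 0.025), a call lost in 4 of 9 fits leaving out 1 array. Luc7l2, a splicing factor, gave -0.28 and was not called, and its 11 probes gave between -0.50 and -0.02, with 1 called when each probe was a feature (-0.39, limma, adjusted p = 0.023). Trim24, a chromatin reader, gave -0.25 on its brightest probe and between 0.36 and 0.56 on its 3 others, with 0 called in limma. Of 6 kinases and signalling genes, Ahcyl2 alone was called (13.2% of all features), while Braf gave -0.16 and Hipk2 -0.28. In limma, 0 of 10 genes of ubiquitin and nuclear transport and 0 of 5 peptidases were called (13.2% of all features). At an unadjusted limma p under 0.05 were 1 and 2 of them (28.4% of all features).

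Among metabolic enzymes, 1 of 12 was called, against 13.2% of all features, at a list median of -0.07. Mgam, the maltase-glucoamylase that digests starch at brush borders, measured -3.14, -2.63 and -2.90 with enarodustat and -3.68, -3.24 and -3.38 with vehicle in ob/ob, against -2.07, -2.05 and -1.66 in wild type. All ob/ob arrays were below wild type, a change of -1.23 ± 0.16 (SE, limma, adjusted p = 0.0027). Of the 4 aldo-keto reductases, which reduce aldehydes and sugars, limma called 0 (13.2% of all features). At an unadjusted limma p under 0.05 were 2 of them (28.4% of all features). Akr1b3, the aldose reductase of the polyol pathway, measured 4.06, 3.93 and 4.20 with enarodustat and 4.14, 4.11 and 4.05 with vehicle in ob/ob, against 4.23, 4.27 and 3.91 in wild type. Its groups overlapped (-0.05 ± 0.11, SE). Akr1b7 gave 1.19 ± 0.53 (SE, limma, adjusted p = 0.18), with -1.79 in wild-type replicate 3 and 0.98 and 0.44 in the other wild-type arrays. The imprinted gene Mest, with 0.16 ± 0.18 (SE), and its neighbour Copg2, with -0.02 ± 0.17 (SE), were not called. The antisense transcript Copg2os2 rose by 0.48 ± 0.12 (SE, limma, adjusted p = 0.033), a call lost in 6 of 9 fits leaving out 1 array.

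Of 11 genes of the secretory pathway and lysosome, limma called 0 on the brightest probes between both ob/ob groups and wild type (13.2% of all features). The median change was 0.17, and 3 had an unadjusted limma p under 0.05 (28.4% of all features). Calu is one of the 11, and its second probe was called, as given above. Atp6v1f, a subunit of the vacuolar proton pump, gave 0.29 (limma, adjusted p = 0.084). Among uncharacterised membrane proteins, Tmem140 rose by 0.58 ± 0.11 (SE, limma, adjusted p = 0.010), while its 2 other probes gave 0.02 and 0.31.

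Of 18 immune and antiviral genes, 4 were called higher (Irf5, Tfec, Rarres2 and Tmem176b; 8.09% of all features) and 1 lower (Gimap3; 5.14% of all features), at a median of 0.04. Rarres2, which encodes the adipokine chemerin, measured 4.27, 4.20 and 4.29 with enarodustat and 4.41, 4.14 and 4.51 with vehicle in ob/ob, against 3.92, 3.64 and 2.95 in wild type. It rose by 0.80 ± 0.20 (SE, limma, adjusted p = 0.032) with no overlap, and the call was lost in 7 of 9 fits leaving out 1 array. Tmem176b, a membrane protein of myeloid cells, rose by 0.62 ± 0.15 (SE, limma, adjusted p = 0.028), a call lost in 5 of those 9 fits.

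The Gimap genes encode small GTPases known from lymphocytes and lie in a cluster near the upper edge of the window. Gimap3 measured 2.42, 1.94 and 2.17 with enarodustat and 2.56, 2.12 and 2.09 with vehicle in ob/ob, against 3.75, 3.62 and 4.07 in wild type. The groups stood well apart, a change of -1.60 ± 0.16 (SE, limma, adjusted p = 0.0011) or a 3.02-fold lower signal in ob/ob. Gimap3 has 1 kept probe, and whether donor sequence variants lie under it was not tested. On their brightest probes the 6 other named Gimap genes gave between -0.39 and 0.15. Of these, limma called 0 (13.2% of all features), with 1 (Gimap4) at an unadjusted p under 0.05 (28.4% of all features). The second Gimap4 probe gave -0.66 and was called when each probe was a feature (limma, adjusted p = 0.0055), with no overlap of the groups. The second Gimap9 probe gave -0.42 and was not called. Gimap5, whose probe is the nearest Gimap probe to that of Gimap3, measured 2.96, 3.50 and 3.28 with enarodustat and 3.25, 3.42 and 3.31 with vehicle in ob/ob, against 3.53, 3.22 and 3.10 in wild type. The mean of the 6 lymphocyte markers went the other way to Gimap3, with -1.82 to -1.76 on the enarodustat arrays, -2.13 to -1.85 on the ob/ob vehicle arrays and -2.64 to -2.35 on the wild-type arrays. The noncoding Gimap1os was called lower as well (-0.56 ± 0.15, SE, limma, adjusted p = 0.043), a call lost in 7 of 9 fits leaving out 1 array.

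**Figure D4:**
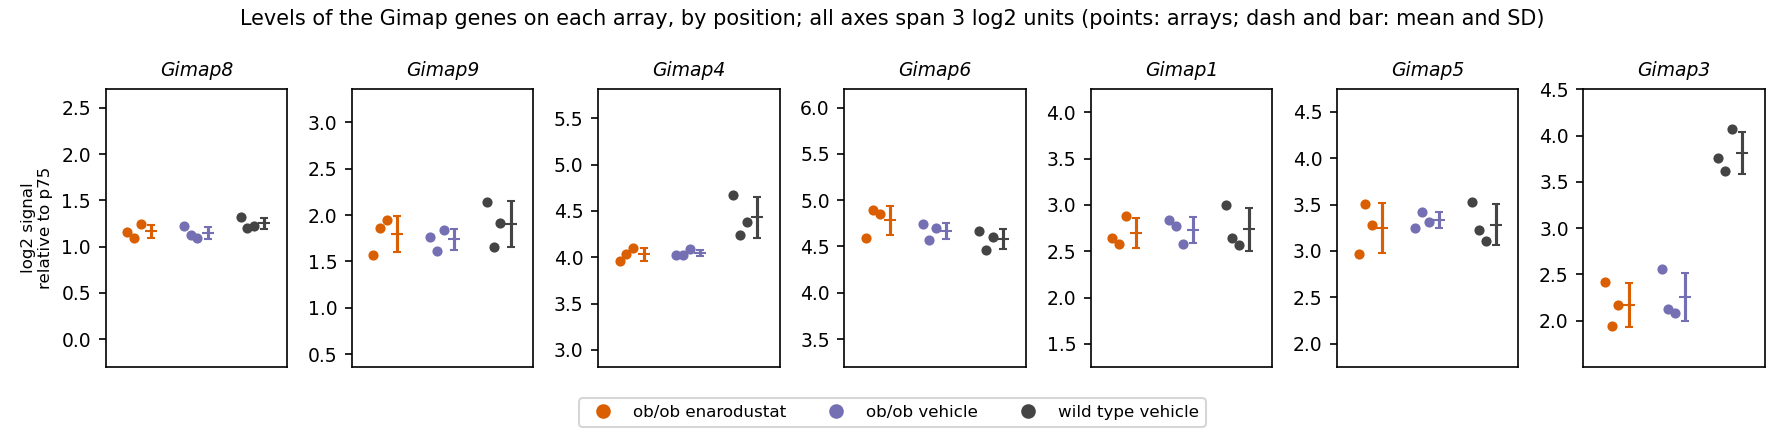
Log2 signal relative to the 75th percentile (p75) of the brightest probe of 7 Gimap genes on each array, in order of position and with axes of equal span. Points are arrays, the dash and bar are mean and SD (n = 3), with ob/ob enarodustat left, ob/ob vehicle in the middle and wild type right. Gimap3 shows the gap between ob/ob and wild type (-1.60), and the other probes plotted lie between -0.39 and 0.15.

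Both constant segments of the T cell receptor beta locus, as the files describe these transcripts, were higher in ob/ob. The first, ENSMUST00000103291, measured -2.01, -2.65 and -2.06 with enarodustat and -2.39, -2.12 and -2.76 with vehicle in ob/ob, against -3.57, -3.11 and -3.77 in wild type. It rose by 1.15 ± 0.21 (SE, limma, adjusted p = 0.011), and the second, ENSMUST00000103299, by 0.94 ± 0.24 (SE, limma, adjusted p = 0.037). The call of the second was lost in 7 of 9 fits leaving out 1 array, and it was not called between vehicle-fed ob/ob alone and wild type (0.79, limma, adjusted p = 0.13). The call of the first was kept in all 9 fits. Against wild type alone, its call was kept in 3 of 9 for vehicle-fed and 5 of 9 for enarodustat-fed ob/ob. With each probe a feature, the other kept probe of the first gave 0.95 and was not called. That of the second gave 1.06 and was called. The constant segments are close copies of each other. The longest run that the brightest probe of the first segment shared with any other of the 282 genes' probes was 10 bases, and for the second segment 11. Whether the 2 signals are separate evidence was not tested. The lymphocyte markers given above moved in the same direction, and their part in this was not tested.

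The last comparison asked whether enarodustat changed these genes within ob/ob glomeruli. None of the 282 genes was called between enarodustat and vehicle (limma, 0 of 282 against a background of 0%), and 22 had an unadjusted p under 0.05, 7.8% against 7.03% of all features. The smallest p belonged to Cadps2, a priming factor of secretory vesicles, which measured -0.93, -0.36 and -0.56 with enarodustat and -2.06, -1.69 and -1.93 with vehicle in ob/ob, and -1.94, -1.91 and -1.29 in wild type. The enarodustat arrays lay above all others, by 1.27 ± 0.22 over vehicle (SE, limma, adjusted p = 0.37) and by 1.10 ± 0.22 over wild type (SE, limma, adjusted p = 0.017). The call against wild type was lost in 4 of 9 fits leaving out 1 array and with the mean of probes, and the second Cadps2 probe gave 0.95 over wild type (limma with each probe a feature, adjusted p = 0.21).

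Svopl, a transporter-like protein, was above background on 3 of 3 enarodustat arrays, 0 of 3 ob/ob vehicle arrays and 2 of 3 wild-type arrays. It was at least 2.49-fold higher with enarodustat than with vehicle, and limma did not call it (adjusted p = 0.50). It was kept through the enarodustat arrays alone, which favours this direction. Hyal6, a hyaluronidase family member, gave -0.56 ± 0.16 (SE, limma, adjusted p = 0.69). Mgam, for which ob/ob vehicle was lowest, gave 0.54 ± 0.18 (SE, limma, adjusted p = 0.71) between enarodustat and vehicle.

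The largest differences between enarodustat and vehicle were in Tmem213 (2.89 ± 1.08, SE), Tmem139 (2.31 ± 0.87, SE) and Atp6v0a4 (1.91 ± 0.92, SE), with adjusted p between 0.71 and 0.72. These genes were looked at after their values were seen. Atp6v0a4, a proton pump subunit of acid-secreting kidney cells, measured 0.45, 2.12 and 0.88 with enarodustat and -2.17, -0.18 and 0.07 with vehicle in ob/ob, and -1.75, -0.99 and 1.62 in wild type. The mean of the 8 distal nephron markers was 0.98, 2.07 and 1.11 with enarodustat, -2.15, -0.30 and 0.15 with vehicle in ob/ob and -1.97, -0.70 and 1.47 in wild type. Array by array, high and low values of Atp6v0a4 fell with high and low values of these markers, and the part of tubule RNA in its difference was not tested. Aass, a lysine-degrading enzyme, was highest in wild-type replicate 3 (2.36) and enarodustat replicate 2 (1.39), the arrays highest in proximal tubule markers, and gave 1.31 ± 1.01 (SE).

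**Figure D5:**
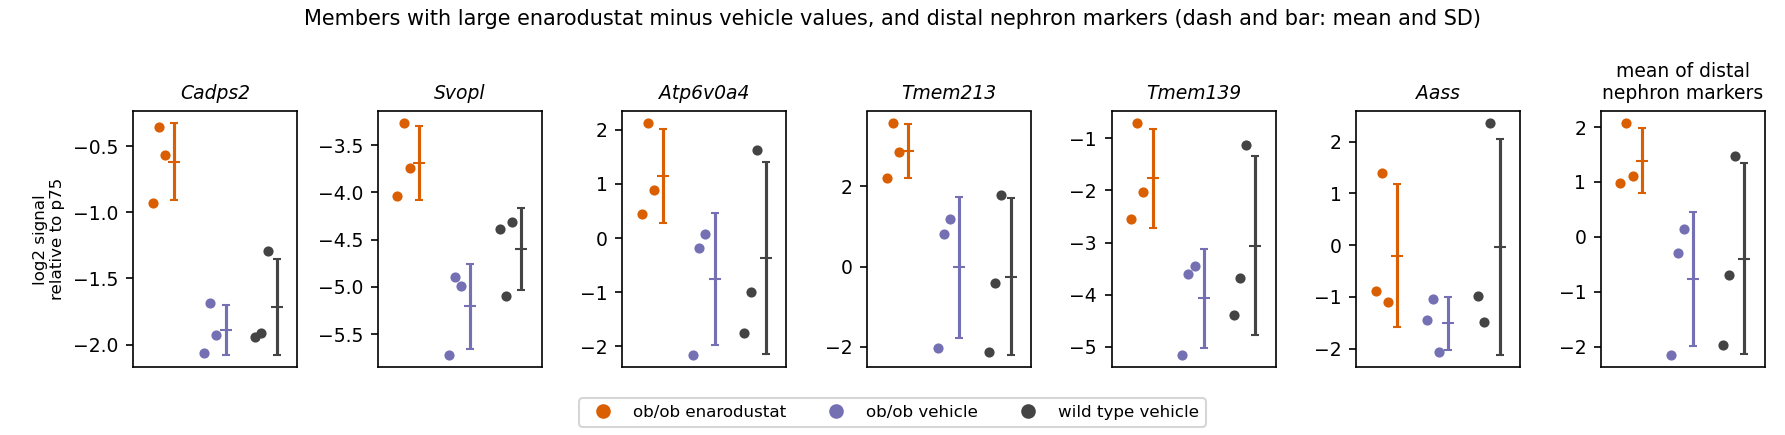
Log2 signal relative to the 75th percentile (p75) of 6 genes around Lep and the mean of the 8 distal nephron markers on each array, each panel with its own axis. Points are arrays, the dash and bar are mean and SD (n = 3), with ob/ob enarodustat left, ob/ob vehicle in the middle and wild type right. Atp6v0a4, Tmem213 and Tmem139 follow the order of the marker mean within the vehicle-fed groups, and Cadps2 is higher on the 3 enarodustat arrays than on the other 6.

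At the edges of the window, the outermost genes inside it were Gm35822 (-0.33) on the low-coordinate side and Doxl2 (0.012) on the other. The next features outside it were BB473918 (0.12) and Malsu1 (0.31), all as log2 changes between both ob/ob groups and wild type. Of the 9 genes left out by name that were detected, Thsd7a gave -1.56, Podxl -0.92 and Cald1 0.80 in that comparison, and these were called. Slc13a1 (-1.28), Lep, Bpgm, Ndufa4, Ndufa5 and Ndufb2 were not called. With the left-out genes added back, 42 of 291 genes were called, 14.4% against 13.2% of all features.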

How the data were processed

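Total RNA of 9 glomerular samples was labelled with Cy3, per the labels' protocols. Per the file headers, scans were extracted in Agilent Feature Extraction (version 11.5.1.1). Limma stands in the submitters' processing notes without a role. The deposited scanner files hold spot intensity on a linear scale, background-subtracted and detrended, and quality flags (0 or 1). The deposited table of values holds log2 values that matched each array's log2 processed signal minus a constant near its 75th percentile; it served as an alternative. Coordinates are those of mm9, per the file headers.

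Control spots and outlier spots were left out, and 32 probes with outlier spots alone were removed. Values were log2 processed signal minus the array's 75th percentile. Of 56605 probes, 36671 were well above background on all arrays of at least 1 group, giving 23968 features, each the brightest probe of a gene name as the files give it. One model with 3 group means was fitted to 9 arrays (limma 3.58.1 in R 4.3.3), with Benjamini-Hochberg adjustment and calls at 0.05. The fit was tested on simulated data. No spot was saturated, and 9 arrays limit the precision. The figures used matplotlib 3.10.9.

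Members, lists, the naming rule and tests were chosen with earlier results of these data known. The rule names the 10 largest called changes in each direction per ob/ob comparison, the 5 smallest p between enarodustat and vehicle, skipping clone and predicted names, and from role lists the called members and the 4 with the highest mean; a gene named outside it was chosen after its values were seen.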

Additional observations from a re-analysis of the deposited data

How the results depend on the processing

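Leaving out each array in turn (the group it came from then has 2 arrays) gave 24 to 35 called genes between both ob/ob groups and wild type (39 with all arrays). The counts were 16 to 29 for enarodustat-fed ob/ob against wild type (32), 13 to 27 for vehicle-fed ob/ob against wild type (27) and 0 to 0 between enarodustat and vehicle. In that order, 8.51% to 12.4%, 5.67% to 10.3%, 4.61% to 9.57% and 0% of the 282 genes were called. Of all features, 6.93% to 12.1%, 5.09% to 9.08%, 3.85% to 7.42% and 0% were called in the same fits. The stretch 10 to 15 Mb below Lep kept 7 to 10 calls (10). The lowest counts came without wild-type replicate 2 (24), enarodustat replicate 3 (16) and ob/ob vehicle replicate 1 (13). Without wild-type replicate 3 they were 25 for both ob/ob groups and 16 for vehicle, and with ob/ob vehicle replicate 3 left out 16 for vehicle. Of the 39 genes, 20 were called in all 9 of these fits, among them Ppp1r3a, Wnt2, Tfec, Tes, Cttnbp2, Irf5, Smo, Plxna4, Mgam, Zyx, Gimap3 and Fam3c, and 16 also under all other settings.

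In the order both ob/ob groups, enarodustat and vehicle against wild type, the counts moved to 21, 17 and 12 without a filter on dim probes, where more features were tested (37062, of which 5.03%, 3.35% and 2.71% were called), and to 76, 53 and 47 with array weights (25.6%, 18.8% and 17.4% of all features). With wild-type replicate 3 and enarodustat replicate 2 removed together, an alternative chosen after seeing the data, they were 23, 19 and 17, with 6 calls in the dense stretch. Of all features, 7.96%, 5.39% and 5.34% were called in that fit. A window of 10 Mb each side, which holds fewer genes, gave 16, 12 and 10. These are 11.9%, 8.89% and 7.41% of its genes, against 13.2%, 10.3% and 7.61% of all features. Fits to the 2 groups compared gave 21 for enarodustat (6.97% of all features) and 14 for vehicle (5.49%). With the mean proximal tubule level as a covariate, both ob/ob groups gave 24 (8.57% of all features), vehicle 14 (2.94%) and the dense stretch 6. The slide as a block, which equals leaving out enarodustat replicate 3, gave 16 for enarodustat (5.74% of all features). With the replicate number as a block, enarodustat gave 21 (8.15% of all features) and vehicle 16 (5.87%). Same-numbered arrays deviated with correlations of -0.31 to 0.27, and arrays of other numbers with -0.38 to 0.48. No sign was seen that the numbers pair the samples, but with 3 arrays per group this check cannot settle it. The cause of the shifts with array weights, the covariate and the block was not tested. Averaging its probes turned St7 in vehicle-fed ob/ob to -0.019 from 0.53. Quantile and normexp normalization, the array median, the mean of probes, each probe as a feature and the authors' value table kept all counts within 1.5 times. Signal over background limits the dim genes, such as Ptprz1, Svopl and 4930445G23Rik, to bounds.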
